A study of Glycine max with 60 samples.

Results

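The 4 genes described here encode phosphatases of the inositol phosphate pathway in soybean seeds. They were chosen by gene ID from the 56044 genes of the count table. Glyma.01G200500, Glyma.20G170500 and Glyma.07G107000 carry annotations as inositol 1,4,5-trisphosphate 5-phosphatases, and Glyma.09G011100 as an inositol monophosphatase whose best Arabidopsis match is VTC4. The IDs are those of the Williams 82 gene set Wm82.a2.v1, and genome positions were not used here. RNA from developing seeds was sequenced in 60 libraries. There were 4 lines with 3 libraries per stage, and the 5 stages were defined by how long the seed was: S1 (2 to 4 mm), S2 (4 to 6 mm), S3 (6 to 8 mm), S4 (8 to 10 mm) and S5 (10 to 12 mm). The low phytic acid line 3mlpa has the genotype mips1/mrp-l/mrp-n, and its sister line 3MWT has MIPS1/MRP-L/MRP-N. The low phytic acid line 1mlpa has the genotype mips1/MRP-L/MRP-N, and its sister line 1MWT again has MIPS1/MRP-L/MRP-N. All plants were grown in chambers. 3mlpa and 3MWT are sister lines from a cross of parents that each carried low phytic acid mutations, whereas 1mlpa and 1MWT are near-isogenic and come from another cross, so other segregating loci and the mutations cannot be told apart in the 3mlpa pair. The libraries of the 3mlpa pair were re-analysed from earlier work, whereas those of the 1mlpa pair were newly generated, so that the pair compared and the data set are confounded and cannot be told apart either. The labels do not say that the 3 libraries of a group came from separate plants, so p-values measure the spread between libraries, which may be technical.

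Phytic acid, inositol hexakisphosphate, is the main phosphorus store of seeds. It is built from glucose 6-phosphate, which myo-inositol phosphate synthase (MIPS) turns into inositol monophosphate, and inositol monophosphatase then releases free myo-inositol. Kinases add phosphates to inositol up to phytic acid, and MRP transporters move the product to the vacuole. The inositol polyphosphate 5-phosphatases act in the opposite direction to the kinases: they remove the phosphate at position 5 of the ring from inositol trisphosphate and, for some enzymes, from phosphoinositide lipids, and so end inositol trisphosphate signals. In Arabidopsis IP5PII, the best match of Glyma.01G200500, is such an enzyme with a role in abscisic acid responses, and VTC4 acts on galactose 1-phosphate in ascorbate synthesis as well as on inositol phosphates.

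The summed counts of a library ranged from 17359192 to 42800413 (median 25314824). At S1 the 10 genes with the highest counts held 2.12 to 5.62% of a library, and at S5 they held 23.0 to 32.9%. Levels are therefore given as CPM, library-scaled counts after TMM normalization, a scaling that keeps the typical gene level between libraries. When libraries were scaled by their totals, the median gene of all genes tested was lower by 0.03 to 0.54 on the log2 scale at each later stage of a line. Between mutant and non-mutant that scaling moved the median gene by -0.25 to 0.18. The correlation of a library with its own group ranged from 0.958 to 0.990, and 16 of 60 libraries were most like another group. Those least like their own group were replicate 3 of 3mlpa at S5, replicate 3 of 3mlpa at S4, replicate 2 of 3MWT at S1, replicate 1 of 3mlpa at S3 and replicate 3 of 1MWT at S2. RNA of the mutated genes did not mark the mutants: in 30 tests between mutant and non-mutant at single stages, edgeR called MIPS1 (Glyma.11G238800) and the transporter genes Glyma.03G167800 (MRP-N) and Glyma.19G169000 (MRP-L) 0 times and DESeq2 0 times, with 4 tests at an unadjusted p under 0.05, so counts do not check the genotype labels. In these comparisons 1290 to 15992 of the 40517 genes tested had an unadjusted p under 0.05. Counts of the 4 phosphatase genes were moderate to low, with a median over libraries of 147 for Glyma.01G200500, 458 for Glyma.20G170500, 89 for Glyma.07G107000 and 372 for Glyma.09G011100. All of them passed the filter on low counts.

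Whole seeds hold embryo, seed coat and endosperm, and in bulk samples fewer cells of a type and less RNA per cell cannot be told apart. The summed level of 3 embryo markers (glycinin G1, beta-conglycinin alpha and an oleosin) rose from 1.94 to 145 CPM in the S1 libraries to 105000 to 202000 CPM in the S5 libraries. The summed level of 10 seed coat markers was 685 to 1404 CPM at S1 and 173 to 316 CPM at S5. Of the endosperm markers sought by symbol, 2 genes (AGL62 and ZOU matches) were found, with a summed level of 2.53 to 8.20 CPM at S1 and 0.056 to 0.78 CPM at S5. No embryo or seed coat marker was at 0 in all libraries of a group, and 1 of the endosperm markers was at 0 in 3mlpa, 3MWT and 1mlpa at S4.

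The 4 genes had different stage profiles. Glyma.01G200500 fell with seed size in 3 lines, Glyma.20G170500 rose sharply from S1 to S2 in all 4 lines, Glyma.09G011100 rose to S3 or S4 and was lower at S5, and Glyma.07G107000 stayed at a few CPM throughout. A change over the stages of a line was called when the adjusted p of the 4 degree of freedom test was under 0.01 and the highest and lowest stage means differed by more than 1 on the log2 scale. All adjusted p-values in the text come from edgeR's quasi-likelihood test with Benjamini-Hochberg adjustment over the 40517 genes tested. By that rule 3 of the 4 genes were called in 3mlpa, beside 36.4% of all genes tested. In 3MWT 2 of 4 were called, beside 34.9%. In 1mlpa and in 1MWT 3 of 4 were called, beside 37.5% and 35.8%.

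**Figure D1:**
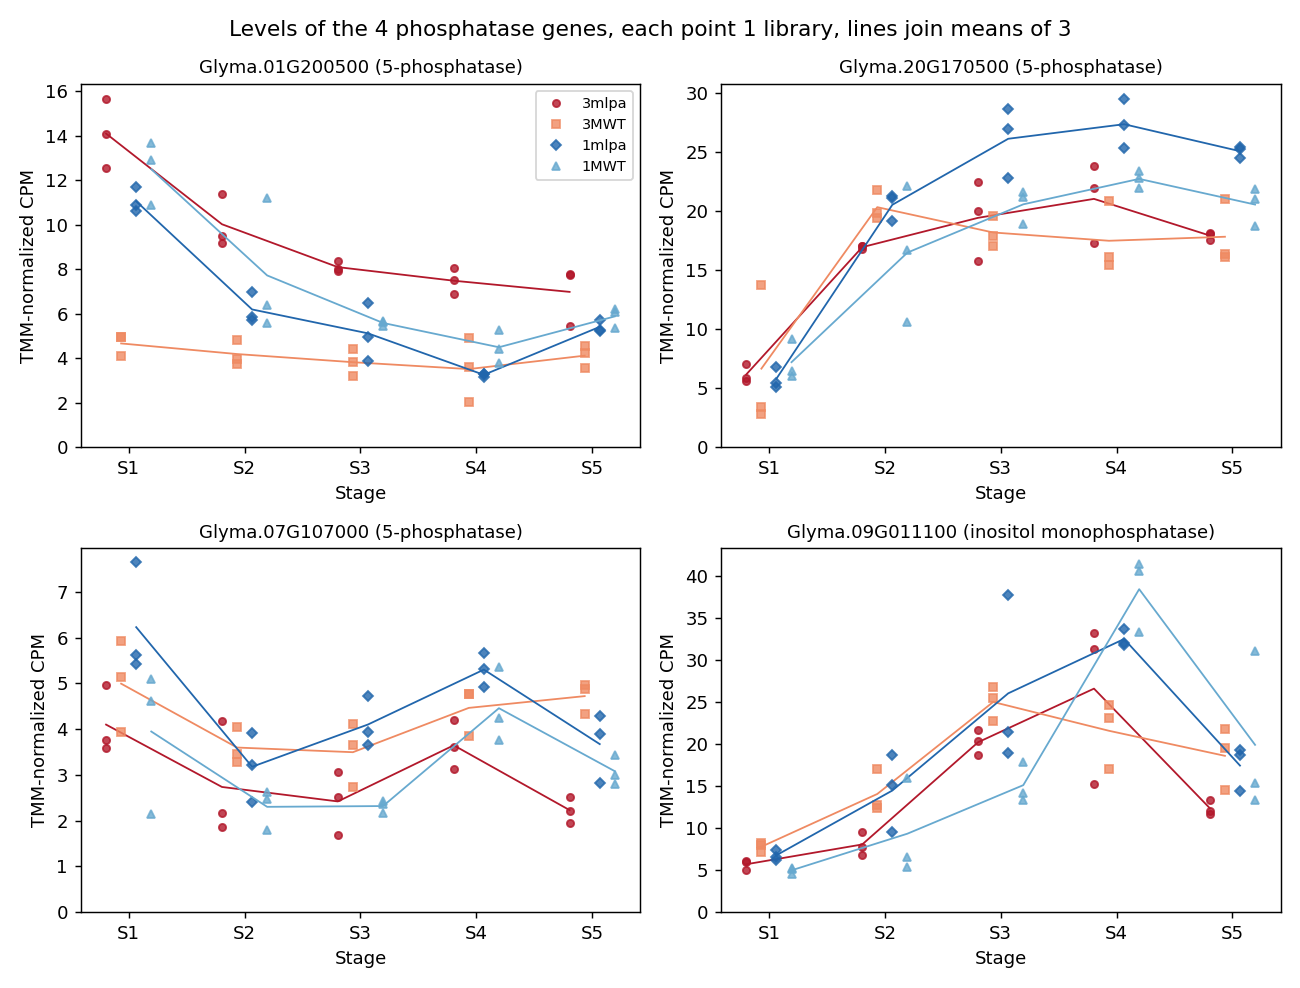
TMM-normalized CPM (vertical axis, from 0) of the 4 phosphatase genes at stages S1 to S5 (horizontal axis), each point 1 library and each line joining the means of 3 libraries. Glyma.01G200500 in 3MWT stays between 2.04 and 4.95 CPM while 3mlpa falls from 14.1 to 6.98 CPM on average, and Glyma.20G170500 steps up between S1 and S2 in every line.

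Glyma.01G200500, the IP5PII match, was higher in 3mlpa than in 3MWT at every stage. At S1 the 3mlpa libraries were at 15.7, 14.1 and 12.5 CPM and the 3MWT libraries at 4.94, 4.95 and 4.12 CPM. At S2 the 3mlpa libraries were at 11.4, 9.20 and 9.49 CPM and those of 3MWT at 4.84, 3.77 and 3.98 CPM. The groups were well apart at both stages, with the lowest mutant library above the highest non-mutant library. At S3 the values were 8.37, 7.99 and 7.93 CPM in 3mlpa and 3.85, 4.41 and 3.23 CPM in 3MWT. At S4 they were 7.51, 6.89 and 8.06 CPM in 3mlpa and 3.61, 4.92 and 2.04 CPM in 3MWT. The groups did not overlap here either. At S5 the values of 7.77, 7.75 and 5.44 CPM in 3mlpa and 3.56, 4.25 and 4.56 CPM in 3MWT still did not overlap, with replicate 3 of 3mlpa nearest to the non-mutant. Gaps between groups were not counted over all genes, for this gene or the others below, so how usual they are was not tested.

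For lines and for adjacent stages, a call needed a log2 fold change beyond 1 in either direction with an adjusted p below 0.01. At S1 the log2 fold change of Glyma.01G200500 between 3mlpa and 3MWT was 1.59 (SE 0.19, adjusted p = 6.1e-08), and it was the 1 of the 4 genes called, where 4.59% of all genes tested were called higher. At S2 the value was 1.26 (SE 0.19, adjusted p = 7.2e-06), beside 3.38% called higher. The values were smaller at later stages, but a change of the line effect with stage was not called for this gene (adjusted p = 0.22). The difference was 1.08 at S3 (SE 0.20, adjusted p = 1.0e-04), beside 3.22% called higher. At S4 it was 1.07 (SE 0.20, adjusted p = 3.0e-04), beside 1.07% called higher. Of the calls over all genes 71.3% were higher at S3 and 45.1% at S4, or 84% and 62.6% when libraries were scaled by their totals. At S5 the value of 0.76 (SE 0.21, adjusted p = 0.0066) passed the p threshold but not the fold threshold. Without replicate 3 of 3MWT at S3 the S3 value was 0.97 (adjusted p = 0.0026), and without replicate 3 of 3MWT at S4, the library at 2.04 CPM, the S4 value was 0.81 (adjusted p = 0.012), so that each of these calls was lost. Averaged over the stages the difference was 1.15 (SE 0.089, adjusted p = 1.7e-14), and Glyma.01G200500 was again the 1 gene of 4 called, beside 4.71% called higher. A line effect that differed between stages was called for none of the 4 genes in the 3mlpa pair, where 3.89% of all genes were called. None of the 4 had an unadjusted p under 0.05 in that test, where 10716 of the 40517 genes tested had it, and DESeq2 called none.

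Over the stages of 3MWT the means of Glyma.01G200500 stayed between 3.52 and 4.67 CPM and the range of 0.39 on the log2 scale was not called (adjusted p = 0.45). Scaled by library totals that range was 1.08 and was called. In the other 3 lines the gene was higher at S1 and fell: from 14.1 to 6.98 CPM between S1 and S5 in 3mlpa (range over stages 1.02, adjusted p = 2.0e-05), from 11.1 CPM at S1 to 3.26 CPM at S4 in 1mlpa (range 1.76, adjusted p = 3.3e-09) and from 12.5 CPM at S1 to 4.50 CPM at S4 in 1MWT (range 1.47, adjusted p = 2.8e-08). The 3mlpa range sat at the fold threshold: it was 0.91 to 1.10 with single libraries left out, and the call was lost for 9 of 15 libraries with an adjusted p of at most 0.0010. No step between adjacent stages was called for this gene with all libraries and TMM scaling, where the largest was from S1 to S2 in 1mlpa, at -0.83 (SE 0.19, adjusted p = 7.3e-04). With library totals the step from S3 to S4 in 1mlpa was -1.15 (adjusted p = 4.3e-05, against -0.65 and 0.019) and was called. Without replicate 1 of 1MWT at S2, the library at 11.2 CPM, the step from S1 to S2 in 1MWT was -1.04 (adjusted p = 2.0e-04, against -0.69 and 0.014) and was called. In 1mlpa and 1MWT the gene was higher again at S5 than at S4, by 0.73 (SE 0.21, adjusted p = 0.014) and 0.39 (SE 0.20, adjusted p = 0.17), neither called.

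The same gene did not separate 1mlpa from 1MWT. At S1 the 1mlpa libraries were at 11.7, 10.6 and 10.9 CPM and the 1MWT libraries at 10.9, 13.7 and 12.9 CPM. The groups overlapped at every stage except S4, where 1mlpa was at 3.29, 3.32 and 3.18 CPM and 1MWT at 5.28, 4.44 and 3.78 CPM. The log2 differences ran from -0.46 (S4, SE 0.21, adjusted p = 0.29) to -0.12 (S5, SE 0.21, adjusted p = 1.0), and the average over stages was -0.24 (95% interval -0.42 to -0.064, adjusted p = 0.098). The effect of the line differed between the pairs by 1.77 at S1 (SE 0.27, adjusted p = 7.5e-06), where 5.24% of all genes tested were called higher in this test. The difference was 1.58 at S2 (SE 0.27, adjusted p = 7.0e-05), beside 3.67% called higher. At S3 it was 1.20 (SE 0.28, adjusted p = 0.0027), beside 2.19% called higher. At S4 it was 1.53 (SE 0.29, adjusted p = 4.8e-04), beside 1.07% called higher. Of the calls over all genes in this test 57.2% were higher at S3 and 47.1% at S4, or 85.2% and 90.3% with libraries scaled by their totals. Without replicate 1 of 1mlpa or replicate 3 of 3MWT at S3 the S3 call was lost (1.04 and 1.09, adjusted p = 0.014 and 0.013). Averaged over stages the difference between pairs was 1.39 (SE 0.12, adjusted p = 4.6e-12), beside 5.69% called higher.

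The embryo markers of the S1 libraries differed between lines beside this gene. Their summed level was 1.94 to 29.6 CPM in 3mlpa, 51.8 to 145 CPM in 3MWT, 2.76 to 7.68 CPM in 1mlpa and 66.3 to 90.6 CPM in 1MWT. The 1MWT libraries, whose marker sums lie inside the range of 3MWT, had 10.9 to 13.7 CPM of Glyma.01G200500 against 4.12 to 4.95 CPM in 3MWT. These 2 lines come from different crosses and data sets, and the part of the markers in that difference was not tested. The seed coat sums overlapped between 3mlpa (941 to 1077 CPM) and 3MWT (685 to 1103 CPM) at S1 and at S3 to S4, whereas at S2 they were higher in 3mlpa (960 to 1093 CPM) than in 3MWT (542 to 681 CPM) without overlap, as the gene was. The embryo sums of this pair overlapped at S2 to S4, and at each of these stages the lowest sum was in a 3mlpa library. At S2 they were 394 to 954 CPM in 3mlpa and 799 to 6270 CPM in 3MWT. They were 5610 to 33600 against 24100 to 56100 CPM at S3 and 37800 to 99700 against 77700 to 90400 CPM at S4. The part of the embryo and seed coat markers in the line values of this gene was not tested.

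**Figure D2:**
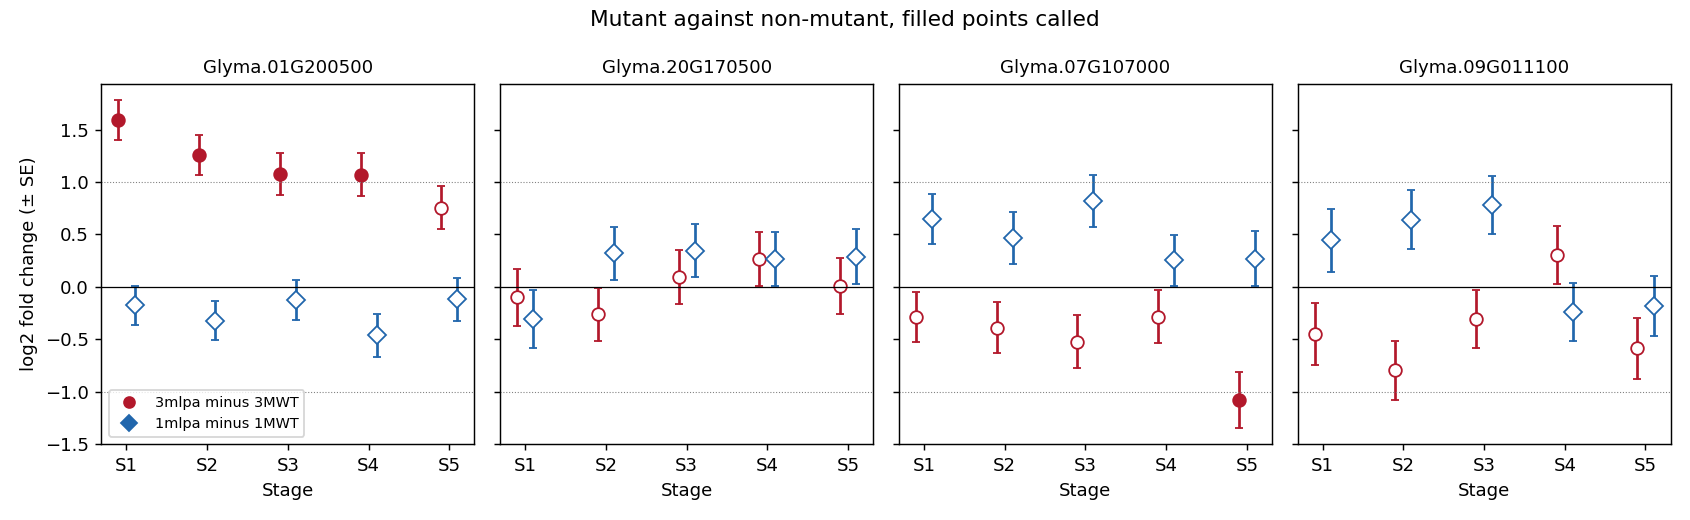
Log2 fold change (vertical axis, with SE bars) between mutant and non-mutant at stages S1 to S5 (horizontal axis) for each of the 4 genes; circles are 3mlpa minus 3MWT, diamonds 1mlpa minus 1MWT, filled points are called and dotted lines mark a fold change of 1 on the log2 scale. Glyma.01G200500 is called from S1 to S4 and Glyma.07G107000 at S5 in the 3mlpa pair, and every diamond is open.

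Glyma.20G170500, a type I 5-phosphatase by annotation, was the member with the clearest developmental switch. Its S1 libraries were at 7.03, 5.65 and 5.86 CPM in 3mlpa and at 16.79, 16.99 and 17.02 CPM at S2. In 3MWT they were at 3.45, 13.7 and 2.83 CPM at S1 and at 19.8, 21.8 and 19.4 CPM at S2. In 1mlpa they were at 5.15, 5.49 and 6.81 CPM at S1 and at 21.2, 19.2 and 21.1 CPM at S2. All libraries of these 3 lines were lower at S1 than at S2, and replicate 2 of 3MWT at S1 lay far from its fellows. In 1MWT the S1 libraries were at 9.16, 6.43 and 6.03 CPM and those of S2 spread from 10.6 over 16.7 to 22.1 CPM.

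The step from S1 to S2 was called in every line. In 3mlpa it was 1.45 (SE 0.27, adjusted p = 1.1e-04), and this was the 1 gene of 4 called, beside 3.30% called higher. In 3MWT it was 1.62 (SE 0.27, adjusted p = 9.6e-06), again the 1 gene of 4, beside 4.67% called higher. In 1mlpa it was 1.82 (SE 0.27, adjusted p = 1.6e-06); here Glyma.09G011100 was called too, 2 of 4 beside 4.77% called higher. In 1MWT it was 1.19 (SE 0.27, adjusted p = 0.0036), the 1 gene of 4 called beside 1.37% called higher. The 1MWT step was the least steady. It was 0.93 (adjusted p = 0.15) without replicate 3 of 1MWT at S2, and the call was also lost without replicate 2 or 3 of 1MWT at S1 (1.13 and 1.10, adjusted p = 0.038 and 0.020). The 3MWT step was 2.70 (adjusted p = 2.3e-13) without replicate 2 of 3MWT at S1.

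After S2 the gene held its level in CPM, but not in RPKM. Group means from S2 to S5 were 16.9 to 21.0 CPM in 3mlpa, 17.5 to 20.3 CPM in 3MWT, 20.5 to 27.3 CPM in 1mlpa and 16.5 to 22.7 CPM in 1MWT, and no later step was called. The highest mean of all groups was 27.3 CPM in 1mlpa at S4 and the lowest 5.82 CPM in 1mlpa at S1. On the deposited RPKM scale, which divides by the library total, the means were lower at S5 than at S2. They went from 7.22 to 4.25 RPKM in 3mlpa and from 8.29 to 4.09 RPKM in 3MWT. In 1mlpa they went from 8.70 to 5.99 RPKM and in 1MWT from 6.855 to 4.48 RPKM. The rise from S1 to S5 was smaller on that scale. Taken between means of the log2 values of single libraries, it was 0.63, 0.92, 1.25 and 0.55 in 3mlpa, 3MWT, 1mlpa and 1MWT. In CPM the same rise was 1.54, 1.79, 2.12 and 1.53 on the log2 scale. In 3MWT, whose S1 libraries spread widely, the plain means went from 6.66 to 17.8 CPM and from 2.89 to 4.09 RPKM.

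No line effect was called for Glyma.20G170500. Over the stages the average difference between 3mlpa and 3MWT was 0.00 (95% interval -0.24 to 0.24), and that between 1mlpa and 1MWT was 0.18 (95% interval -0.053 to 0.42). In the single stages the values lay between -0.31 and 0.34. The groups did not overlap at S2 of the 3mlpa pair, with 3mlpa lower, nor at S3, S4 and S5 of the 1mlpa pair, with 1mlpa higher. They overlapped at the other stages. How many of all genes have groups lying apart was not counted, so whether these gaps are usual was not tested. The S1 value of the 3mlpa pair rested on 1 library: it was -0.10 (SE 0.27, adjusted p = 0.82) with all libraries and 0.96 (SE 0.20, adjusted p = 4.6e-04, below the fold threshold) without replicate 2 of 3MWT. Without that library the line effect of this pair differed between stages (adjusted p = 0.0083, against 0.79 with it) and differed from that of the 1mlpa pair at S1 by 1.26 (adjusted p = 4.6e-04, against 0.21 and 0.74 with it). That library had an embryo marker sum of 145 CPM against 51.8 and 56.3 CPM in the other 3MWT libraries at S1, and over all genes it was most like 3MWT at S2. Replicate 3 of 1MWT at S2, the library at 22.1 CPM, had a marker sum of 2535 CPM against 56.2 and 275 CPM in the other replicates. The part of these marker differences in the values was not tested.

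Glyma.07G107000, the third 5-phosphatase, was the least abundant of the 4 genes and was called between mutant and non-mutant at 1 stage, S5 of the 3mlpa pair. At S5 the 3mlpa libraries were at 2.22, 2.51 and 1.96 CPM and the 3MWT libraries at 4.33, 4.88 and 4.95 CPM, without overlap. The log2 fold change was -1.08 (SE 0.26, adjusted p = 0.0026), and this was the 1 gene of 4 called at S5, where 2.58% of all genes were called lower. The call rests on few libraries, since it was lost without replicate 1 of 3mlpa (-1.08, adjusted p = 0.011), without replicate 3 of 3mlpa (-0.99, adjusted p = 0.018) and without replicate 2 of 3MWT (-1.06, adjusted p = 0.011). The embryo marker sums of the groups overlapped at S5, 124700 to 144500 CPM in 3mlpa and 130500 to 137200 CPM in 3MWT. The seed coat sums were lower in 3mlpa (270.7, 257.1 and 180.9 CPM) than in 3MWT (270.8, 287.8 and 315.8 CPM), without overlap but with almost touching ranges, and their part in the result was not tested. At S1 to S4 the groups overlapped and the values were -0.53 to -0.29, none called. Averaged over stages 3mlpa was lower by 0.51 on the log2 scale (SE 0.11, adjusted p = 1.5e-04), under the fold threshold, and a line effect that differed between stages was not called (adjusted p = 0.38).

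In the other pair Glyma.07G107000 leaned the opposite way. At S1 the 1mlpa libraries were at 5.62, 7.65 and 5.41 CPM and the 1MWT libraries at 5.09, 4.61 and 2.15 CPM. At S3 they were at 3.93, 4.72 and 3.65 CPM and at 2.44, 2.16 and 2.36 CPM. The groups did not overlap at these stages and did at the others. Such gaps were not counted over all genes, so how usual they are was not tested. The differences between 1mlpa and 1MWT were 0.25 to 0.82, none called, and the average over stages was 0.49 (SE 0.11, adjusted p = 0.0086), under the fold threshold. In the comparisons of 1mlpa with 1MWT at single stages none of the 4 genes was called, where 0.289%, 0%, 0.00247%, 0.074% and 0% of all genes were called from S1 to S5. Of those 20 tests 5 had an unadjusted p under 0.05, and DESeq2 called 0. Of the 40517 genes tested, 4285, 5070, 3774, 5790 and 1290 had an unadjusted p under 0.05 from S1 to S5. Averaged over stages 0 of 4 were called beside 0.079%, and 0 by DESeq2. An unadjusted p under 0.05 was reached by 3 of 4, beside 8125 of the 40517 genes. For the line effect that differed between stages in this pair the counts were 0 of 4 beside 0.00247%, and 0 by DESeq2. In that test 1 of 4 had an unadjusted p under 0.05, beside 3795 of the 40517 genes.

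Tested directly, the line effect on Glyma.07G107000 differed between the pairs by -1.004 averaged over stages (SE 0.16, adjusted p = 1.8e-06), beside 1.89% called lower. At S3 the difference was -1.35 (SE 0.36, adjusted p = 0.0078), beside 1.64% called lower. Both calls stood close to a threshold. The average was not called by DESeq2 (-0.991) nor with RLE factors (-0.990), without the filter on low counts (-0.992) or with library totals (-0.854), each under the fold threshold. The S3 call was lost with library totals (-1.06, adjusted p = 0.038) and without the filter (-1.32, adjusted p = 0.012). The average ran from -1.09 to -0.94 with single libraries left out and fell below the fold threshold for 29 of 60, while its adjusted p was at most 5.2e-06. The S3 value ran from -1.54 to -1.14 and lost its call without any 1 of 9 of the 12 libraries (adjusted p up to 0.037). At S5 the difference was -1.35 (SE 0.37, adjusted p = 0.022), not called.

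Over the stages Glyma.07G107000 was called to change in no line with all libraries and TMM scaling. Its means were lowest at S2, S3 or S5 and the ranges over stages were 0.88 in 3mlpa (adjusted p = 0.0066), 0.51 in 3MWT (adjusted p = 0.18), 0.97 in 1mlpa (adjusted p = 0.0025) and 0.95 in 1MWT (adjusted p = 0.0011). Scaled by library totals, the ranges in 3mlpa, 1mlpa and 1MWT were 1.78, 1.61 and 1.36 and were called. With all libraries and TMM scaling no step was called, and the nearest to a call were from S1 to S2 in 1mlpa (-0.97, SE 0.24, adjusted p = 0.0020) and from S3 to S4 in 1MWT (0.94, SE 0.25, adjusted p = 0.0078). With library totals the steps from S4 to S5 in 3mlpa (-1.03, against -0.71), from S1 to S2 in 1mlpa (-1.02) and from S4 to S5 in 1MWT (-1.07, against -0.53) were called. Without replicate 1 of 3mlpa at S2 the step from S1 to S2 in 3mlpa was -1.02 (adjusted p = 0.0055, against -0.58 and 0.093) and was called, as was the range over stages in 3mlpa (1.02). The 1mlpa range and S1 to S2 step were called without replicate 1 or 3 of S1 or replicate 2 of S2 (ranges 1.01 to 1.13). In 1MWT the range was called without replicate 3 of S1, 1 or 3 of S2 or 1 of S4 (1.02 to 1.07). Its S1 to S2 step was called without replicate 3 of S1 (-1.05), and its S3 to S4 step without replicate 1 of S4 (1.05).

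Glyma.09G011100, the VTC4-like inositol monophosphatase that stands at the step from inositol monophosphate to free myo-inositol, had the widest range of the 4 genes. Its group means ran from 4.99 CPM in 1MWT at S1 to 38.5 CPM in 1MWT at S4. In 1MWT the libraries were at 5.24, 4.55 and 5.18 CPM at S1, at 13.4, 14.2 and 17.8 CPM at S3 and at 33.3, 41.5 and 40.6 CPM at S4. At S5 they were at 15.4, 31.1 and 13.3 CPM, so that only replicate 2 stayed near the S4 level. In 3mlpa they were at 9.60, 6.85 and 7.75 CPM at S2, at 18.7, 20.4 and 21.6 CPM at S3, at 33.3, 31.4 and 15.2 CPM at S4 and at 12.1, 13.4 and 11.7 CPM at S5. Here replicate 3 of S4 lay near the S5 libraries.

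In 3mlpa the gene rose from S2 to S3 by 1.33 (SE 0.28, adjusted p = 0.0010), the 1 gene of 4 called, beside 2.30% called higher. Of all calls in that step 58.5% were higher, or 28.4% with library totals. In 1mlpa it rose from S1 to S2 by 1.10 (SE 0.29, adjusted p = 0.0035). In 1MWT it rose from S3 to S4 by 1.34 (SE 0.28, adjusted p = 9.9e-04), the 1 gene of 4 called, beside 1.78% called higher. Of all calls in that step 57% were higher, or 15.6% with library totals. The 1MWT call was lost when the fit held the compared line alone (1.33, adjusted p = 0.021). Without replicate 3 of 1MWT at S2 the step from S2 to S3 in 1MWT, 0.71 (adjusted p = 0.33) with all libraries, was 1.35 (adjusted p = 0.0023) and was called, and without replicate 2 of 1MWT at S2 that from S1 to S2 was 1.22 (adjusted p = 0.0072, against 0.90 and 0.048). In 3MWT no step was called; the largest were from S1 to S2 (0.85, SE 0.29, adjusted p = 0.023) and from S2 to S3 (0.83, SE 0.28, adjusted p = 0.030). That a step differed between lines was not called by the test of a line effect that differs between stages (adjusted p = 0.25 in the 3mlpa pair and 0.47 in the 1mlpa pair).

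A decrease from S4 to S5 was called in 3mlpa, at -1.11 (SE 0.29, adjusted p = 0.0089), the 1 gene of 4, beside 2.09% called lower. It lost its call without any of replicates 1 and 2 of S4 or the 3 libraries of S5, with values of -1.17 to -0.92 (adjusted p up to 0.115), and was -1.38 without replicate 3 of S4. The same step was -0.89 (SE 0.28, adjusted p = 0.027) in 1mlpa and -0.95 (SE 0.28, adjusted p = 0.010) in 1MWT, neither called. Without replicate 2 of 1MWT at S5 the 1MWT step was -1.42 (adjusted p = 4.0e-04), and with library totals it was -1.45 (adjusted p = 7.3e-05), called both times. In 3MWT it was -0.22 (SE 0.28, adjusted p = 0.87). The step from S1 to S2 in 1mlpa lost its call without replicates 2 or 3 of S1 or of S2 (0.89 to 1.11, adjusted p = 0.011 to 0.041), and the step from S2 to S3 in 3mlpa without replicate 2 of S2 (1.25, adjusted p = 0.011).

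None of the line effects of Glyma.09G011100 was called. In the 3mlpa pair they ran from -0.80 at S2 (SE 0.28, adjusted p = 0.036) to 0.31 at S4, with an average of -0.37 (SE 0.13, adjusted p = 0.013). In the 1mlpa pair they ran from -0.24 at S4 to 0.78 at S3 (SE 0.28, adjusted p = 0.37), with an average of 0.29 (SE 0.13, adjusted p = 0.18). The values of 3mlpa and 3MWT did not overlap at S1, S2, S3 and S5, with 3mlpa lower each time, and overlapped at S4. At S2 the 3MWT libraries were at 17.1, 12.8 and 12.4 CPM. In the other pair the groups did not overlap at S1 and S3, with 1mlpa higher, and did at S2, S4 and S5. Groups lying apart were not counted over all genes, so whether such gaps are usual in either pair was not tested. At S2 the libraries were at 9.60, 15.2 and 18.7 CPM in 1mlpa and at 6.63, 5.39 and 16.0 CPM in 1MWT. The effect differed between the pairs at S2 by -1.44 (SE 0.40, adjusted p = 0.0088), beside 1.79% called lower. This call was lost with 8 of 12 libraries left out singly (-1.53 to -1.18, adjusted p up to 0.043). Without replicate 3 of 1MWT at S2 the difference between pairs was -2.11. Leaving out the libraries with divergent column names removed this library and also replicate 1 of 1mlpa at S2, the lowest of its group at 9.60 CPM. In that setting 1MWT lay below 1mlpa at S2 (1.52, adjusted p = 0.0011).

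The libraries of Glyma.09G011100 that departed from their groups also departed in the embryo markers. Replicate 3 of 3mlpa at S4, with 15.2 CPM of the gene, had a marker sum of 99750 CPM against 37820 and 44670 CPM in the other replicates, and a seed coat sum of 219 CPM against 877 and 696 CPM. Replicate 2 of 1mlpa at S3, with 37.8 CPM of the gene against 18.9 and 21.5 CPM, had a marker sum of 34780 CPM against 5209 and 3573 CPM. Replicate 2 of 1MWT at S5, with 31.1 CPM, had a sum of 113000 CPM against 201900 and 179200 CPM. Each of these libraries, picked by its level of the gene, lay toward a neighbouring stage in the gene and in the markers alike. Replicate 1 of 3mlpa at S3 departed in the markers, with a sum of 5609 CPM against 33570 and 26500 CPM. In the gene it was near its group, at 18.7 CPM against 20.4 and 21.6 CPM. Plotted over all libraries the gene was at 4.55 to 8.27 CPM where the marker sum was under 150 CPM, and its highest values, 31.1 to 41.5 CPM, fell at sums of 34780 to 113000 CPM. Other libraries in that range were lower, such as those of 3MWT at S4, with 17.05 to 24.7 CPM at sums of 77700 to 90390 CPM. The part of these marker differences in the line and stage values of this gene was not tested.

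**Figure D3:**
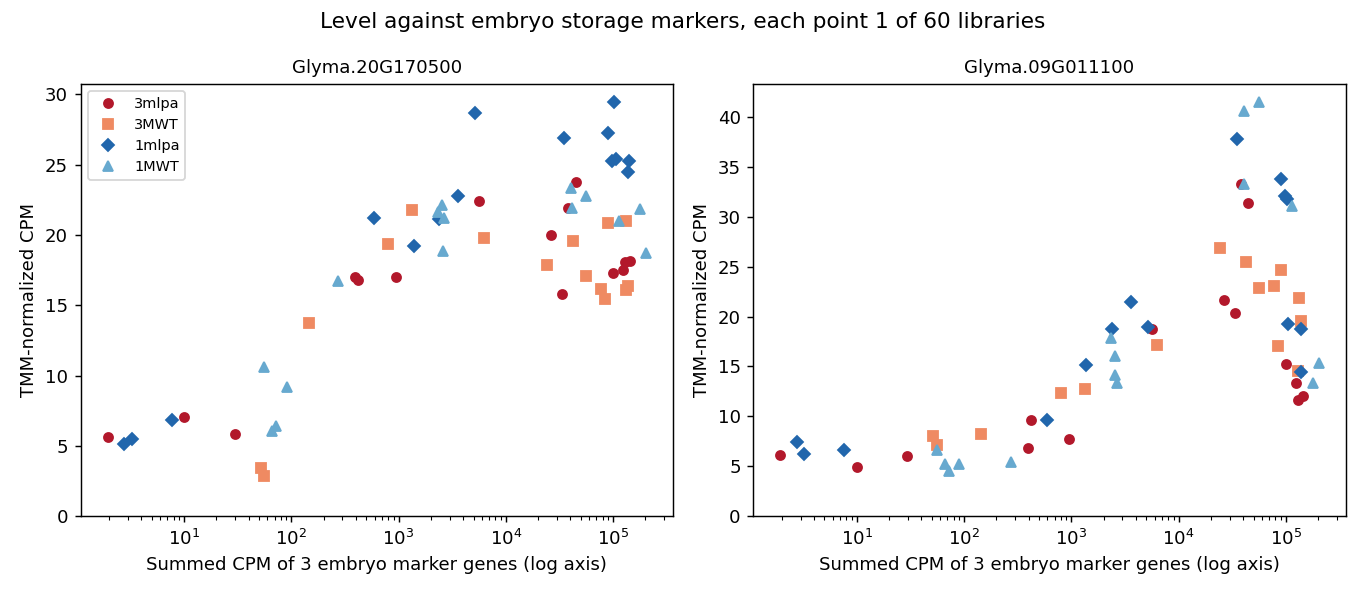
TMM-normalized CPM of Glyma.20G170500 (left) and Glyma.09G011100 (right) on the vertical axes against the summed CPM of 3 embryo marker genes on a log horizontal axis, each point 1 of 60 libraries, with shape and colour for the line. Glyma.20G170500 lies between 2.83 and 13.7 CPM in the libraries with the lowest marker sums and at 15.5 CPM or above in the rest. The highest values of Glyma.09G011100 lie between sums of 34780 and 113000 CPM, where other libraries, such as those of 3MWT at S4, are lower. Beyond that range no library reaches them.

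Across the 20 group means of log2 CPM, which share libraries between genes and differ mainly by stage, Glyma.20G170500 and Glyma.09G011100 went together (Pearson r = 0.81), and both ran against Glyma.01G200500 (r = -0.57 and -0.74). Glyma.07G107000 followed none of the others closely (r = -0.34 to 0.090). In the order of the 20 group means most neighbours overlapped. The libraries of adjacent groups were fully apart at 1 of 19 places for Glyma.01G200500 and 2 of 19 for Glyma.20G170500. They were fully apart at 0 of 19 for Glyma.07G107000 and 1 of 19 for Glyma.09G011100. Such places were not counted for other genes, so whether these counts are usual for a gene was not tested.

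Each member has relatives with the same best Arabidopsis match, and how reads shared by such copies were counted is not stated in the sources used here, so levels within these families are uncertain to that extent. Glyma.10G221000, a relative of Glyma.20G170500, followed it over the 20 group means (r = 0.94) and was called to rise from S1 to S2 in 3MWT (1.01, SE 0.19, adjusted p = 5.2e-05) and 1mlpa (1.42, SE 0.19, adjusted p = 2.5e-07). Glyma.02G078700, with the same match, ran the opposite way (r = -0.76) and was called to fall from S1 to S2 in 3MWT (-1.01, SE 0.12, adjusted p = 6.8e-08). Genes with the same match thus ran in opposite directions. Glyma.17G178700, also with that match, showed no relation (r = 0.046). The relative of Glyma.01G200500, Glyma.17G153000 (r = -0.062), was called higher in 3mlpa than in 3MWT at S1 (1.32, SE 0.33, adjusted p = 0.0024), with group means of 2.48 and 1.00 CPM. Glyma.07G266200 followed Glyma.09G011100 no better (r = -0.17), and of the relatives of Glyma.07G107000, Glyma.08G093200 had r = 0.13 and Glyma.09G285200, with at most 18 counts in a library, did not pass the filter.

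Per length of gene, the 10 listed 5-phosphatase genes changed places during seed growth. In the summed RPKM of these genes, Glyma.01G200500 held 18.7% ± 2.59 (SD, n = 3) in 3mlpa at S1 against 7.65% ± 0.964 in 3MWT, and 16.5% and 18.1% in 1mlpa and 1MWT. At S5 its share was 8.56% in 3mlpa and 5.84 to 7.09% in the other lines. Glyma.20G170500 went from 6.27 to 7.95% at S1 to 16.9 to 20.7% at S5. Glyma.07G107000 held 3.34 to 11.3% in all groups. Glyma.17G178700 held 21.2 to 38.5%. Among the 3 inositol monophosphatase genes, Glyma.09G011100 rose from 6.09 to 7.54% of the summed RPKM at S1 to 25.7 to 35.4% at S5, and Glyma.04G009800, whose Arabidopsis match acts in histidine synthesis, held 59.8 to 89.1%. These shares are within a library and so do not depend on the scaling between libraries.

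**Figure D4:**
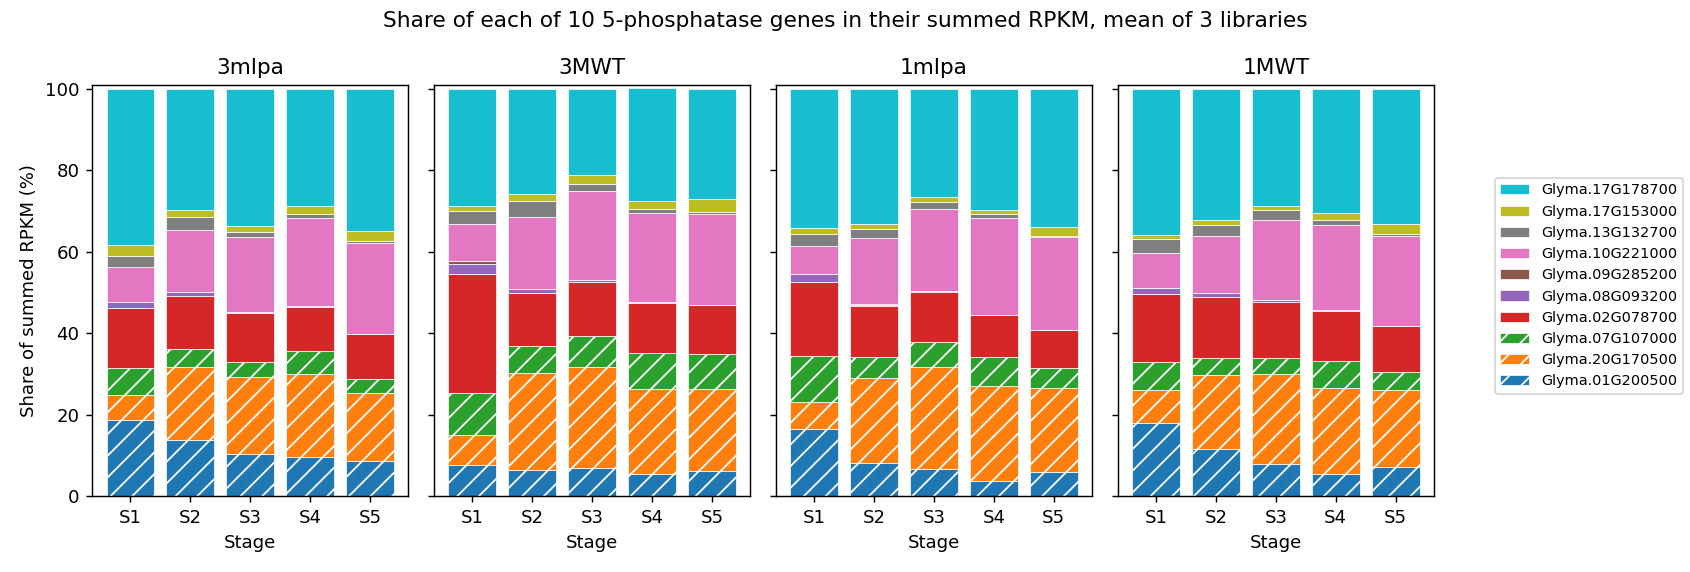
Share of each of 10 5-phosphatase genes in their summed RPKM (vertical axis, percent, mean of 3 libraries) at stages S1 to S5 (horizontal axis) in the 4 lines; hatched segments are Glyma.01G200500, Glyma.20G170500 and Glyma.07G107000. The Glyma.01G200500 segment at S1 is 7.65% in 3MWT and 16.5 to 18.7% in the other lines.

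Other genes of the pathway were taken from the study's sheet of phytic acid enzymes, which was chosen on these samples and so is no independent evidence of direction. Over the 5 stages of the 3mlpa pair, 2 of 6 tested other 5-phosphatases were called at a stage, both higher, where 13.2% of all genes tested were called at 1 or more of these stages: Glyma.17G153000 at S1, as above, and Glyma.17G178700 at S3 (1.16, SE 0.21, adjusted p = 7.5e-05), with group means of 12.0 and 5.34 CPM. The median of the list was 0.046 at S1 and 0.16 at S3 on the log2 scale, against -0.026 and 0.010 over all genes. Of the 4 MIPS genes 1 was called, the low Glyma.08G138200, which was lower in 3mlpa at S1 (-3.11, SE 0.41, adjusted p = 5.2e-07), S2 (-2.77, SE 0.43, adjusted p = 1.0e-05), S3 (-2.71, SE 0.48, adjusted p = 5.6e-05) and S5. Its levels were 0.26 to 0.35 CPM in 3mlpa and 0.87 to 4.73 CPM in 3MWT at S1, and at S5 the 3mlpa libraries had 1, 0 and 1 counts against 22, 19 and 10. Of 3 inositol phosphate kinases and of 2 other inositol monophosphatases 0 were called by edgeR in the 3mlpa pair, with 1 and 0 calls by DESeq2. Unadjusted p was under 0.05 in 7 of 15 and 5 of 10 tests. At each stage of this pair 10829 to 15992 of the 40517 genes tested had such a p. Between 1mlpa and 1MWT edgeR called 0 genes of the 4 lists, beside 0.365% of all genes tested called at 1 or more stages. DESeq2 called 1 kinase test. Unadjusted p was under 0.05 in 3 of 30 tests of 5-phosphatases, 2 of 10 of monophosphatases, 6 of 15 of kinases and 3 of 20 of synthases. At each stage of this pair 1290 to 5790 of the 40517 genes had such a p.

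Of all genes tested, 23.4% were called in at least 1 of the 16 steps between adjacent stages. Among the other 5-phosphatases 4 of 6 were called in some step, 2 calls higher and 6 lower; Glyma.08G093200, a relative of Glyma.07G107000, fell from S1 to S2 in 3MWT and 1mlpa (-1.51 and -1.82) and from S2 to S3 in 3mlpa (-2.39), and Glyma.13G132700 fell from S2 to S3 in 3mlpa and 3MWT (-1.12 and -1.29). Of the MIPS genes 3 of 4 were called: Glyma.11G238800 was higher at S2 than at S1 in each line (1.14 to 1.74), and Glyma.05G180600 fell in 3MWT and 1mlpa (-2.39 and -1.58). The rise of Glyma.11G238800 thus fell in the same step as that of Glyma.20G170500. Of the kinases 2 of 3 were called; Glyma.14G072200, the inositol pentakisphosphate 2-kinase match that adds the last phosphate of phytic acid, rose at 1 or 2 steps in each line (1.03 to 1.73), and Glyma.10G255000 fell from S4 to S5 in 1MWT (-1.04). Both other monophosphatases were called, all 3 calls from S4 to S5 and lower: Glyma.07G266200 in 3mlpa (-1.66) and 1MWT (-1.01) and Glyma.04G009800 in 1MWT (-1.06). In all, 11 calls of these lists were higher and 13 lower, or 9 and 31 with libraries scaled by their totals.

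The study's network links a transcription factor to each member, and over the 20 group means 3 of these 4 factors had profiles close to their proposed targets. The DOF factor Glyma.17G101000 had r = 0.86 with Glyma.01G200500 and, like it, was higher in 3mlpa: at S1 its libraries were at 7.06, 7.07 and 11.1 CPM against 3.65, 5.48 and 3.15 CPM in 3MWT (1.04, SE 0.29, adjusted p = 0.0066), and at S3 the difference was 1.31 (SE 0.30, adjusted p = 0.0014). Its values in 1mlpa and 1MWT overlapped at every stage. The zinc finger factor Glyma.13G327500 had r = 0.95 and the SPEECHLESS-like Glyma.13G040100 r = 0.93 with Glyma.20G170500, and 0.83 each with Glyma.09G011100. Both were called higher at S2 than at S1 in each of the 4 lines, by 1.08 to 2.20 and by 2.01 to 3.02 on the log2 scale. The MYB factor Glyma.17G085600 had r = -0.25 with Glyma.07G107000. The network was inferred from these same libraries, so these values are a description of it and no separate evidence.

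Of all genes tested, the 3 with the most similar profile to Glyma.01G200500 were Glyma.18G104900 and Glyma.14G061400, without annotation in the files, and Glyma.05G156600, a calmodulin-binding protein (r = 0.94 each over 20 group means). For Glyma.20G170500 they were Glyma.14G146400 (exostosin-like), Glyma.19G074600 and Glyma.12G237800, a WIP zinc finger protein (r = 0.98 each). For Glyma.09G011100 they were Glyma.19G133100 (r = 0.96), Glyma.04G055400, a DnaJ domain protein (r = 0.95), and Glyma.09G079900, an aspartic proteinase (r = 0.95). For Glyma.07G107000 the likeness was lower, with Glyma.07G096700, a lipid transfer protein (r = 0.84), Glyma.08G174000 (r = 0.82) and Glyma.13G038300, a match of the auxin carrier PIN6 (r = 0.80). Glyma.18G104900 too was called higher in 3mlpa than in 3MWT at S1 (1.12, adjusted p = 4.0e-04) and S2 (1.00, adjusted p = 0.0018, at the fold threshold). The 20 group means that chose it include these groups, so this is part of the same likeness and no further evidence of it.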

How the data were processed

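RNA of developing seeds was measured in 60 libraries of 20 groups (4 lines, 5 stages, 3 replicates), grouped by the sample labels. The deposited counts were made by the authors from single-end reads aligned to Williams 82 with STAR 2.4.2 and counted per gene with featureCounts 1.4.6; strand and multi-mapping settings are not given in the sources used here. The deposited RPKM equal count over gene length and library total, to within 0.00773% for 16788 genes. The deposited log2 fold changes are the authors' DESeq2 1.8.2 comparisons (R 3.2.4) and were not used; only the annotation text beside them was read.

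Counts were fitted with edgeR 4.0.16 (R 4.3.3) by quasi-likelihood, 1 mean per group, after TMM and filterByExpr (40517 of 56044 genes; 40 residual and 4.61 prior degrees of freedom), with Benjamini-Hochberg adjustment over all genes of each comparison. Calls needed an adjusted p under 0.01 and, except for line by stage, a log2 change above 1. The deposited tables allow 10 line, 16 stage-step, 2 averaged, 4 profile, 2 line-by-stage and 6 between-pair comparisons. Intervals are 95% t intervals of that fit. The procedure was tested on simulated data.

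The text names the 4 genes, for each the 3 genes of highest Pearson r over 20 group means of log2 CPM (prior count 2), pathway genes called between lines, up to 4 per list for stage steps by smallest adjusted p, and the 4 factors of the study's network; the 2 transporter genes were added as a check of the genotype. Members and lists were chosen with earlier results of these data known. Alternatives were RLE factors, DESeq2 1.42.0, no filter, library totals, fewer lines, a replicate block, and leaving out each library, the 3 libraries with a divergent column name, or the 5 least like their group. For levels, the deposited RPKM were also set in place of TMM CPM.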

Additional observations from a re-analysis of the deposited data

Results flagged for a closer look

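In 8 of 24 tests the effect of the mutant line on a phosphatase gene differed between the 3mlpa and the 1mlpa pair, by a test of that difference in the edgeR fit. In the contrasts and directions of these calls, 1.07 to 5.69% of all genes tested were called. For Glyma.01G200500 the effect was larger in the 3mlpa pair by 1.77 at S1, 1.58 at S2, 1.20 at S3, 1.53 at S4 and 1.39 averaged over the stages on the log2 scale, and 3mlpa was higher than 3MWT in 3 of 3 libraries at each of these stages. For Glyma.07G107000 the 3mlpa pair minus the 1mlpa pair gave -1.35 at S3 and -1.004 averaged over the stages. For Glyma.09G011100 it gave -1.44 at S2. These calls of Glyma.07G107000 and Glyma.09G011100 stood close to a threshold, and each was lost with library totals. With single libraries left out, the Glyma.07G107000 calls were lost for 9 of 12 at S3 and 29 of 60 for the average. The Glyma.09G011100 call was lost for 8 of 12, and the S3 call of Glyma.01G200500 for 2 of 12. The pairs differ in cross, relatedness of the sister lines and data set as well as in genotype, and these cannot be told apart. The test for an outlying sample within a group was not run on groups of 3 libraries.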

How the results depend on the processing

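The calls of the 4 genes between mutant and non-mutant (5), averaged over stages (1) and over the stages of a line (11) stayed within 1.5 times under every alternative. Calls between adjacent stages were 8, and 5 with the libraries of the compared line only, which lost the steps of Glyma.09G011100 from S4 to S5 in 3mlpa and from S3 to S4 in 1MWT and that of Glyma.20G170500 in 1MWT. Library totals gave more step calls than TMM, all of the added ones falls, and lost that of Glyma.20G170500 in 1MWT. Line effects that differed between stages were 0, and 1 without the 5 libraries least like their group; with single libraries left out the count was 0 to 1. Those that differed between the pairs were 8, and 5 with library totals in place of TMM; with single libraries left out they were 5 to 9. Calls of the other pathway genes between lines were 6, and 11 without the 3 libraries of divergent column name, and 11 without the 5 libraries; between stages they were 24, and 40 with library totals. Library totals and the 5 libraries were chosen after seeing the data; the cause of these changes was not tested, other than that fewer samples enter where libraries are left out. No called value changed sign. With the deposited RPKM in place of TMM CPM, 15 values moved and 1 stayed the same. Mean levels of Glyma.09G011100 in 3mlpa were 4.16 RPKM at S1 and 4.81 RPKM at S5, against 5.71 and 12.4 CPM. Those of Glyma.01G200500 in 3MWT were 2.57 RPKM at S1 and 1.24 RPKM at S5, against 4.67 and 4.12 CPM. A replicate block gave 5, 8, 1, 11, 0 and 7 calls for the 6 results of the 4 genes and lost the Glyma.09G011100 difference between pairs at S2 (-1.43, adjusted p = 0.010); same-numbered libraries correlated at -0.48 to 0.48 and 0 of 26 comparisons had all above 0.1, so the samples share only a number. The planned description of sequences and a second form of the lists from RefSeq names were not run. Counts of 32 to 541 per library for Glyma.01G200500 and 34 to 280 for Glyma.07G107000 limit the precision of their values.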
